A study of Mus musculus with 4 samples.

Results

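Sertoli cells were picked from single-cell RNA sequencing of mouse testicular organoids (TOs) and mouse testes by a rule on 12 genes, and numbered 3125 of the 41484 cells kept. A cell was kept with 1000 to 5000 genes, at most 20000 unique molecular identifiers (UMIs, each standing for 1 captured transcript) and at most 10% of its UMIs from mitochondrial genes. It was taken as a Sertoli cell when at least 3 of Sox9, Wt1, Cldn11, Rhox8, Aard and Amh were detected with 5 or more UMIs in sum. This sum also had to exceed that of the Leydig cell genes Cyp11a1 and Hsd3b1 and that of the peritubular myoid genes Acta2 and Myh11, with no UMI of the endothelial gene Pecam1 or the leukocyte gene Ptprc. The levels of these 12 genes chose the cells and are therefore described without a test.

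There were 2 libraries of TOs and 2 of testes (TO and testis replicates 1 and 2), all from ICR mice and all given as day 28. The TOs were built from dissociated cells of neonatal testes, re-aggregated into spheroids, held for a time in basement membrane extract and cultured at reduced temperature in medium with serum replacement, antioxidants, follicle-stimulating hormone (FSH) and testosterone. The testes came from 28-day-old mice and were not cultured. The cells of the TOs came from neonatal pups, and their day counts the time in culture, so that the time since birth differed between TOs and testes. The dissociation protocol in the labels names day 21 TOs, which differs from the day 28 of the design, and gives the same enzyme steps for TOs and testes. Nothing in the labels ties a testis library to 1 animal or a TO library to 1 of the batches of cells, although the study's methods describe the TOs as 2 independent batches and its supplement the testes as 2 biological replicates. The p-values measure the spread between these libraries.

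Sertoli cells line the seminiferous tubules, hold the germ cells in their folds and feed them, and seal the tubule with the junctions of the blood-testis barrier. SOX9 and WT1 keep their identity, FSH and androgen reach germ cells through them, and AMH is a product of immature Sertoli cells that falls at puberty. They also clear the residues of dying germ cells and shed spermatid cytoplasm, and supply lactate and retinoic acid.

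Sertoli cells were 1727 of 10759 kept cells in TO replicate 1 (16.1%, 95% Clopper-Pearson interval 15.4–16.8) and 843 of 9463 in TO replicate 2 (8.91%, 8.34–9.5). In testes they were 403 of 10804 (3.73%, 3.38–4.10) and 152 of 10458 (1.45%, 1.23–1.70). The share was higher in each TO library than in either testis library, with 12.5% ± 5.05 against 2.59% ± 1.61 (mean ± SD, n = 2 libraries each). The exact two-sided permutation test gave p = 0.333, the smallest it can give with 2 libraries against 2. When cells were thinned to 3000 UMIs before the rule, with shallower cells left out, the shares were 16.6% and 7.28% in TOs and 7.41% and 2.03% in testes, so that TO replicate 2 fell below testis replicate 1 (exact permutation p = 0.667). In testis replicate 1 the kept cells then fell from 10804 to 4644 and the Sertoli cells from 403 to 344. Its share thus rose through the smaller denominator. In TO replicate 2 the kept cells fell from 9463 to 8968 and the Sertoli cells from 843 to 653. There the share fell because Sertoli cells were lost. The denominator held the germ cells, which the testes have in large numbers. Set against Leydig cells picked by the mirrored rule, there were 1.11 and 0.650 Sertoli cells per Leydig cell in TOs and 0.696 and 0.390 in testes, and the groups overlapped (exact permutation p = 0.667). The intervals cover counting error only.

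**Figure D1:**
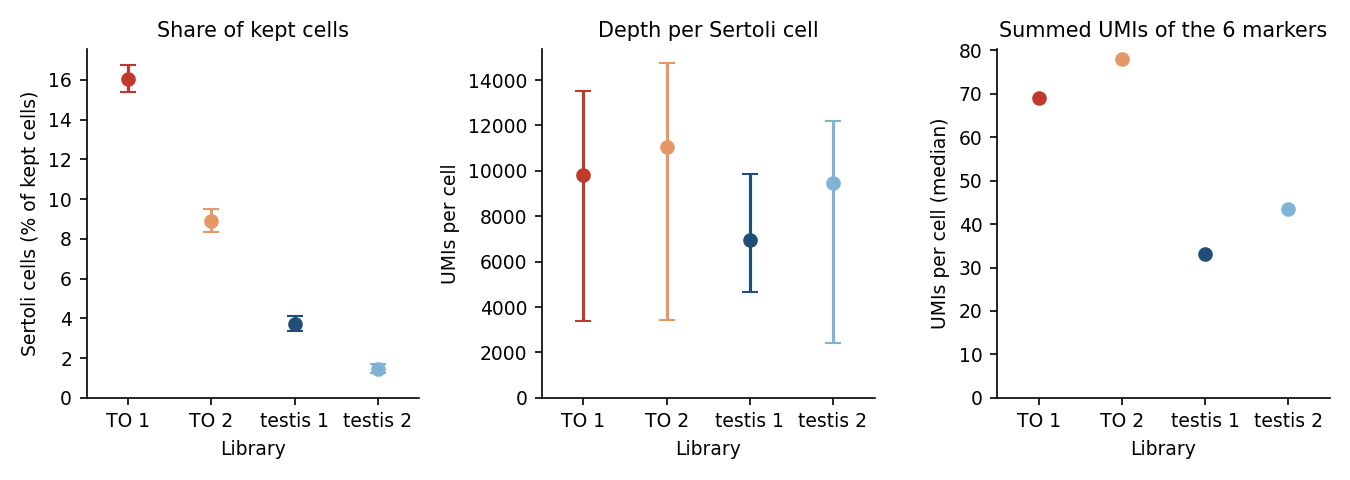
Sertoli cells in each of the 4 libraries: their share of kept cells in percent with 95% Clopper-Pearson intervals, the median UMIs per Sertoli cell with bars from the 10th to the 90th percentile, and the median summed UMIs of the 6 Sertoli markers of the rule. The shares of both TO libraries (16.1% and 8.91%) lie above those of both testis libraries (3.73% and 1.45%), and the median depths lie between 6971 and 11070 UMIs.

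The median Sertoli cell held 9823 and 11070 UMIs in TOs and 6971 and 9446 in testes, and the sums over all Sertoli cells were 15866657 and 8681855 UMIs against 2829657 and 1256839. The 152 cells of testis replicate 2 thus gave the least precise values. The median sum of the 6 markers was 69 and 78 UMIs in TOs and 33 and 43.5 in testes, far from the limit of 5. At that limit, 117, 32, 9 and 6 cells (TO replicates 1 and 2, then testis replicates 1 and 2) had a sum of 5 or 6, and 310, 207, 46 and 48 cells just outside had a sum of 4. Cells over the mitochondrial limit that met the rest of the rule numbered 744, 259, 132 and 88. Any 2 libraries had 30 to 55 cell barcodes in common, and 1 barcode belonged to a Sertoli cell in both TO libraries.

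Transcripts of other cells were present in the Sertoli cells, mostly of germ cells in testes and of stromal cells in TOs. The 18 spermatid genes summed to 5780 and 9903 CPM (UMIs of a gene per 1000000 UMIs of the summed cells) in Sertoli cells of testes, which was 34.9% and 12.2% of their level in all other kept cells of the library, with Prm1 (1485 CPM) and Prm2 (3089 CPM) as the most abundant. In TOs the same list summed to 129 and 88.6 CPM, most of it Odf2, with Tnp1, Sun5 and Akap4 at 0 in both libraries. The 8 stromal genes summed to 836 and 1378 CPM in Sertoli cells of TOs, with Dcn highest, and to 152 and 58.1 CPM in testes, or between 11.2% and 19.1% of the other kept cells in all 4 libraries. The 8 macrophage genes were at 5.04% and 4.22% of the other cells in TOs and at 18.8% and 7.28% in testes, and the 7 Leydig genes at 13.2%, 40.7%, 15.1% and 12.8%, with Fdx1 the most abundant. Endothelial genes summed to at most 35.0 CPM, and Cldn5 was at 0 in both TO libraries. The 6 myoid genes outside the rule summed to 199 and 149 CPM in TOs and 260.5 and 241 CPM in testes, or 17.9%, 20.9%, 48.8% and 48.1% of the other cells. Of these markers, few were compared at all: none of the macrophage genes, 2 endothelial and 1 myoid gene with no call, the stromal gene Pdgfra, higher in TOs but negative in fold after the subtraction in all 4 libraries described below, and 3 Leydig genes with Star higher and Hsd17b3 lower. Cells with 2 or more UMIs of 5 germ cell genes were 15.1% and 9.61% of Sertoli cells in TOs and 39.2% and 54.6% in testes. The level in the other cells is given beside many of the results.

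The 6 Sertoli markers stood above the other kept cells in every library, which the rule that uses them favours. Sox9, which directs Sertoli cell fate, was at 453 and 503 CPM in TOs and 229 and 309.5 CPM in testes, and Wt1, a zinc finger factor of the same programme, at 466 and 497 CPM in TOs and 415 and 464 CPM in testes. Cldn11, the main claudin of the barrier, was at 1057 and 696 CPM in TOs and 479 and 314 CPM in testes, Rhox8, a homeobox gene, at 422 and 348 CPM in TOs and 495 and 423 CPM in testes, and Aard at 4840.1 and 5038 CPM in TOs and 3044 and 3306 CPM in testes. Sox9, Cldn11 and Aard were higher in both TO libraries than in both testis libraries, and the conditions were apart by little for Rhox8 and Wt1. Amh had few UMIs in all 4 libraries, with 3.84 and 0.806 CPM in TOs and 20.9 and 6.37 CPM in testes, and was highest in testis replicate 1.

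Outside the rule, 15 genes with at least 100 CPM in every library were chosen for the largest lead of Sertoli cells over the other kept cells. The first was Gstm6, a glutathione transferase, with at least 16.7 times the CPM of the other cells in each library and 1156 and 888 CPM in TOs and 858 and 680.3 CPM in testes. Wt1os, transcribed from the other strand at the Wt1 locus and so not separable from it without strand, was at 132 and 142 CPM in TOs and 146 and 208 CPM in testes. Gatm, which makes the precursor of creatine, was at 1621 and 1920.1 CPM in TOs and 1104 and 1680.4 CPM in testes, and Qpct, a glutaminyl cyclase, at 515 and 633 CPM in TOs and 342 and 574 CPM in testes. The others were Sema5b, Tmem184a, Slc52a3, Stxbp6, Fndc5, Tmem114, Cidea, Slc25a21, Trpm3, Ctnna2 and Clec12b. Of the 15 genes, Stxbp6 alone was called between the conditions (267 and 254 against 113 and 118 CPM, log2 fold change 1.26, standard error 0.15, edgeR adjusted p = 0.000625). With the subtraction in testes alone described below, its fold was 0.82 (edgeR) and 0.85 (DESeq2), short of the threshold. Sema5b was then called lower by DESeq2 (−1.08). With the subtraction in all 4 libraries, DESeq2 also called Gstm6, Qpct, Slc52a3, Gatm, Fndc5, Tmem114, Cidea and Clec12b higher.

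**Figure D2:**
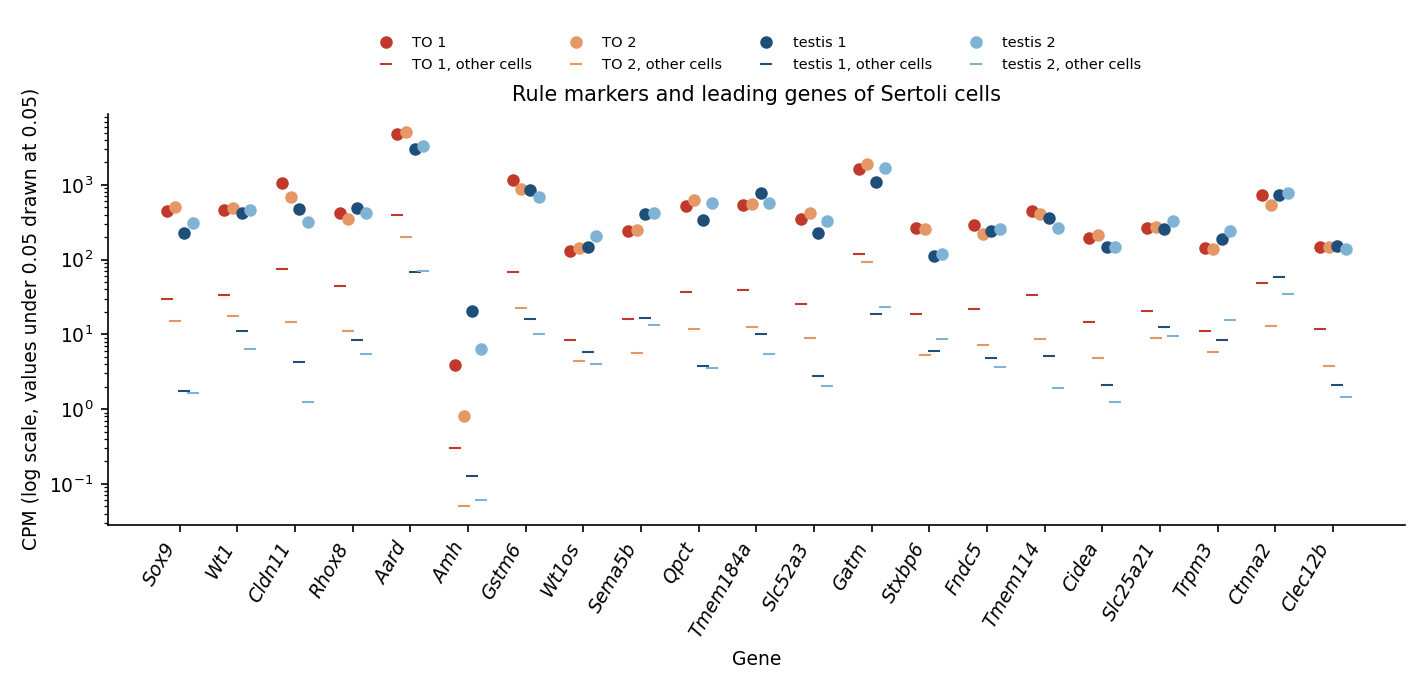
Level of the 6 Sertoli markers of the rule and the 15 leading genes outside it in Sertoli cells (points) and in all other kept cells (dashes) of each of the 4 libraries, in CPM on a log axis. All 21 genes lie above the other cells in every library, which their choice largely fixed, and Amh is the lowest.

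Of 13 transcription factors of Sertoli identity outside the rule, 10 could be compared between TOs and testes, and Hopx was lower in TOs while 9 were not called, beside 22.2% called over all genes. For 5 of the 10 the libraries of the conditions did not overlap, beside 71.7% of all genes. Their median log2 fold change was −0.13, over members that went both ways, beside 0.03 over the 13595 genes compared. After subtraction of the other cells' profile, as described below for all genes, DESeq2 called 2 higher and 1 lower. Gata4, a GATA factor of gonadal somatic cells, was at 209.8 and 202 CPM in TOs and 145 and 165 CPM in testes (log2 fold change 0.50 ± 0.15, estimate ± standard error). Nr0b1, the orphan receptor DAX1, was at 86.6 and 128 CPM in TOs and 90.1 and 170.3 CPM in testes, and Gata1 at 109 and 65.9 CPM in TOs and 123 and 83.5 CPM in testes. For Nr0b1 and Gata1 the 2 libraries of a condition were further apart than the conditions. Hopx, a homeodomain protein that does not bind DNA, was at 75 and 115 CPM in TOs and 250.2 and 310.3 CPM in testes (log2 fold change −1.47, standard error 0.25, edgeR adjusted p = 0.0024). Lhx9, Emx2 and Tcf21 were left out because the other cells of TOs or of testes held at least 5 times their level.

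Across all genes, 927 were higher and 2090 were lower in Sertoli cells of TOs than of testes. These calls took edgeR's quasi-likelihood test on UMIs summed per library, which called a gene at a p below 0.01 after Benjamini-Hochberg adjustment with a change of more than 1 on the log2 scale, and left out 1670 genes held at 5 times the level or more by the other cells of either condition. The background of calls was thus 22.2% of the 13595 genes compared, with 6.82% higher and 15.4% lower. These shares are the background for the counts of each gene list below. The libraries of the 2 conditions did not overlap for 71.7% of the genes. Of genes with at least 50 CPM, 0.581% differed by more than 2-fold between the 2 TO libraries and 2.76% between the 2 testis libraries. Some genes named below share their locus with others (Trim2, Tgfb2, Hk2 and Ezr on the opposite strand, Tsx and Bax on the same strand), and the strand setting of the counting is not given in the sources used here. The Gstm genes are close relatives, so that reads may have been shared among them.

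The calls depended on transcripts of other cells, on testis replicate 1 and, for the higher genes, on the filter on low counts, without which 1706 were higher. Without testis replicate 1, 585 genes were higher and 1172 lower. Of 130 genes that were called and are named in the text, 31 then missed the threshold with edgeR adjusted p from 0.011 to 0.087, with no change of sign: Aen, Aqp5, Aqp9, Atf3, Bid, Bnip3, Ccnb1, Cdh1, Cldn12, Dhrs3, Dusp1, Eppin, Fas, Gclc, Gdnf, Gsr, Hk2, Hsd17b3, Hspa1a, Igfbp5, Jam3, Ly6h, Mest, Pfkp, Rac1, Rdh11, Star, Stra6, Tmsb10, Top2a and Tsc22d3. Without TO replicate 1, TO replicate 2 or testis replicate 2, 11, 7 and 6 of the 130 missed it, and with DESeq2 6 did (Bid, Cldn12, Gdnf, Tmsb10, Top2a and Tsc22d3). With genes left out from 2 times the level, higher genes outnumbered lower ones, with 678 higher and 485 lower of 9775. When the other cells' profile was subtracted in all 4 libraries at the share set by the spermatid genes (92.5% and 79.6% in TOs, where these genes had few UMIs, and 34.9% and 12.2% in testes), edgeR called 0 genes with 4585 at an unadjusted p < 0.05, while DESeq2 called 673 higher and 2407 lower. Of the 927 higher genes 482 (edgeR) and 496 (DESeq2) still lay above 1 on the log2 scale, and of the 2090 lower genes 627 and 1821 below −1, with 10304 and 16980 genes compared. The shares taken for TOs were far above those of stromal genes (16.7% and 17.6%) and macrophage genes (5.04% and 4.22%). They were also above those of Leydig genes (13.2% and 40.7%), endothelial genes (45.0% and 39.8%) and spermatogonial genes (66.7% and 68.5%). A gene held at a higher level by the other TO cells can thus turn negative by construction. Values after the subtraction in all 4 libraries are therefore given below as the extreme of the settings tried, and no direction is read from them. With the subtraction in the testis libraries alone, edgeR called 0 with 3745 at an unadjusted p < 0.05, and DESeq2 called 537 higher and 566 lower. Of the higher genes 765 and 789 then still lay above 1 with edgeR and DESeq2, and of the lower genes 932 and 1658 below −1, so that many folds remained where no call did.

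Most of the lower genes were at higher levels in the other testis cells than in Sertoli cells. Of the 2090 lower genes, 1657 (79.3%) were below the other kept cells in both testis libraries, 390 (18.7%) were above them in both, and 43 differed between the libraries or were equal. The 12 lower genes with the largest fold of at least 50 CPM were Gm9999, Tssk2, Tmco2, Scp2d1, Gm3417, Gm15517, Odf3, Rnf151, Hils1, Prnd, Ropn1 and Tssk1. Except for Prnd, all of them were higher in the other testis cells. Tssk2, a kinase of late spermatids, was at 0.126 and 0.115 CPM in TOs and 108 and 100.2 CPM in testes in Sertoli cells and at 0.211 and 0.572 CPM in TOs and 382 and 659 CPM in testes in the other cells. With 3 UMIs in TOs and 431 in testes, its pooled level was 863-fold (95% counting interval 293–4201) higher in testes. Hils1, a spermatid linker histone, was at 0.126 and 0.921 against 169 and 103 CPM in Sertoli cells and at 644 and 671 CPM in the other testis cells. All 8 spermatid genes and all 7 spermatocyte genes that could be compared were lower in TOs, with Ldhc, the germ cell lactate dehydrogenase, at 57.2 and 27 against 1264 and 929 CPM beside 4346 and 3200.5 CPM in the other testis cells. Their medians were −6.77 and −2.39. Of the 5 spermatogonial and pan-germ genes compared, Ddx4 and Dmrtb1 were lower.

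**Figure D3:**
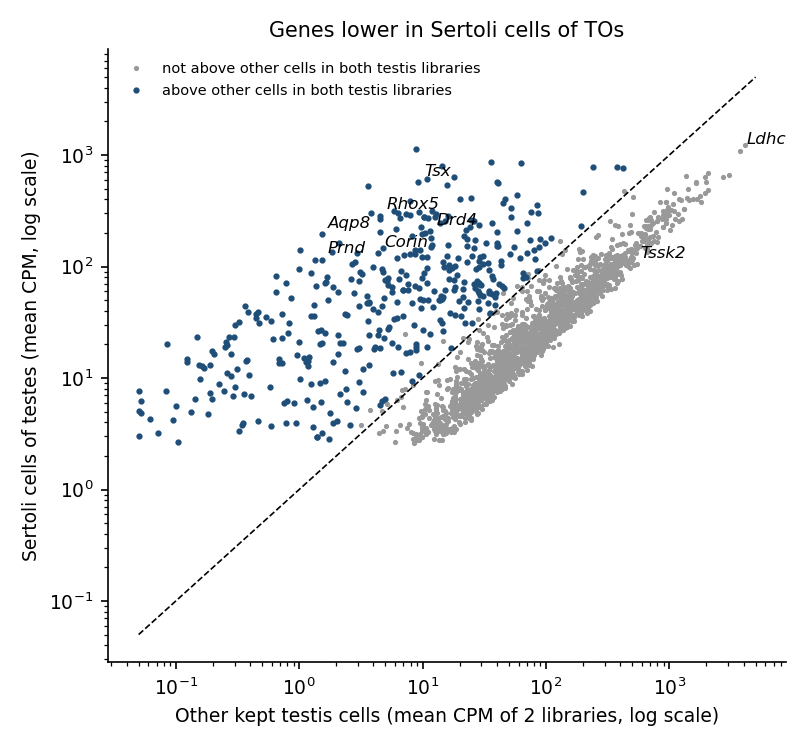
The 2090 genes lower in Sertoli cells of TOs, with their mean CPM in the other kept testis cells (x axis, log scale) and in Sertoli cells of testes (y axis, log scale). The dashed line marks equal levels; the 390 genes in blue exceed the other cells in both testis libraries and the 1700 in grey do not.

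Androgen-responsive genes of Sertoli cells were called in both directions. Of 11 genes of the list, 4 were lower in TOs and 2 higher, with a median log2 fold change of −0.65. Rhox5, a homeobox gene on the X chromosome (chrX:37804842-37808876, GRCm38) known as a direct androgen target in Sertoli cells, was at 7 and 3.92 CPM in TOs and 330.4 and 243 CPM in testes, and at 0.774 and 0.172 CPM in TOs and 5.33 and 3.79 CPM in testes in the other cells. Both TO libraries lay far below both testis libraries, and Rhox5 was lower by log2 fold change −5.60, standard error 0.31, edgeR adjusted p = 2.87e-05. After each cell was thinned to 3000 UMIs, cells with a UMI of Rhox5 were 1.78% and 1.3% in TOs and 54.6% and 42% in testes, against 0.262% and 0.0783% in TOs and 1.06% and 0% in testes of Leydig cells. Unthinned, they were 4.57% and 3.32% in TOs and 76.7% and 56.6% in testes.

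Corin (chr5:72300025-72504473), a membrane protease that activates natriuretic peptide, was at 4.73 and 1.96 CPM in TOs and 125 and 138 CPM in testes (log2 fold change −5.13, standard error 0.33, edgeR adjusted p = 4.32e-05). Drd4 (chr7:141292006-141296464), a dopamine receptor, was at 9.2 and 5.41 CPM in TOs and 278 and 135 CPM in testes (log2 fold change −4.73, standard error 0.40, edgeR adjusted p = 0.000129). Eppin (chr2:164588343-164593594), a secreted protease inhibitor, was at 109 and 133 CPM in TOs and 345 and 246 CPM in testes (log2 fold change −1.21, standard error 0.22, edgeR adjusted p = 0.0038). None of the 3 overlapped between the conditions, and the fold of Eppin was the smallest. These 4 genes lay above the other testis cells, where Rhox5 was at 5.33 and 3.79 CPM, Corin at 4.71 and 3.97 CPM, Drd4 at 13 and 9.94 CPM and Eppin at 11.4 and 14.4 CPM. Corin overlaps other genes on both strands. In the other direction, Fhod3, a formin, was at 20.7 and 24.6 CPM in TOs and 2.83 and 3.98 CPM in testes (log2 fold change 2.88), and Tsc22d3, a glucocorticoid-induced leucine zipper protein, at 19.7 and 22.3 CPM in TOs and 7.42 and 9.55 CPM in testes (log2 fold change 1.43), where the other cells held more (82.8 and 84.6 CPM in TOs and 44.5 and 30.1 CPM in testes). Tubb3, a beta-tubulin, was at 742 and 829 against 788 and 864 CPM, and was not called.

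Promoter windows of RefSeq (GRCm38.p6, 250 bases before to 50 after the start of a transcript) were searched on both strands for AGAACA, the core letters of steroid response elements. It was found in 19% of all 32851 windows and for 3 of the 8 genes of the list that have a window (Rhox5, Eppin and Tsc22d3). The windows of Corin and Drd4 did not hold these letters. The windows of Rhox5 (chrX:37754358-37754657, plus strand) and Eppin (chr2:164593522-164593821, minus strand) are shown because both genes were lower in TOs and hold a match, set in capitals as it reads on the gene's strand. The start of Rhox5 in RefSeq lies upstream of that in GENCODE, so its window is that of the distal start and does not cover the GENCODE start.
Rhox5: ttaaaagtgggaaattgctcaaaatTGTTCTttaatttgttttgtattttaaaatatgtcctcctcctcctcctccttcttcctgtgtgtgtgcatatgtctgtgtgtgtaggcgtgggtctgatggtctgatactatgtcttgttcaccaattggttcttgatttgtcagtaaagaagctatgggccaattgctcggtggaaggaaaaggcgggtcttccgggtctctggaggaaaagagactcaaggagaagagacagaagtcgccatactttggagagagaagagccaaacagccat
Eppin: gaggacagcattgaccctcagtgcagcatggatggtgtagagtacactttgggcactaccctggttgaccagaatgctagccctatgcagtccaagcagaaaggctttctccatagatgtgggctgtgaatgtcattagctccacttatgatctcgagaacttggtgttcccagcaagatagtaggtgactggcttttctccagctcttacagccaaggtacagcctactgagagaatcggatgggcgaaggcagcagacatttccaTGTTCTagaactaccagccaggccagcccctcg

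Among the genes lower in TOs that exceeded the other cells in both testis libraries, the 12 with the largest fold (at least 50 CPM, no overlap, chosen after the values were seen) were Prnd, Aqp8, Apoa2, Ano1, 4930502E18Rik, Rhox5, Pde10a, Frmpd1, Corin, Gm9112, Dmrtc1b and Drd4. Prnd (chr2:131950861-131956130), the prion-like protein doppel, was at 0.441 and 0.23 CPM in TOs and 84.1 and 146 CPM in testes (log2 fold change −8.14, standard error 0.42, edgeR adjusted p = 2.48e-05). It overlaps Prn on the same strand. Aqp8 (chr7:123462291-123468004), a water channel, was at 0.819 and 0.806 CPM in TOs and 180.2 and 208 CPM in testes (log2 fold change −7.79, standard error 0.23, edgeR adjusted p = 1.09e-05). It had 20 UMIs in TOs and 772 in testes, and thinned Sertoli cells with a UMI were 0.19% and 0.13% in TOs and 33.3% and 27.5% in testes. Apoa2, a lipoprotein component, was at 0.567 and 0.691 CPM in TOs and 61.5 and 43 CPM in testes, and Ano1, a chloride channel, at 2.4 and 2.65 CPM in TOs and 174 and 123 CPM in testes. Pde10a, which degrades cyclic nucleotides, was at 4.47 and 2.42 CPM in TOs and 135 and 173 CPM in testes. In all 12 genes every testis library was above every TO library, which follows from the choice.

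With DESeq2 these 12 remained lower after subtraction of the other cells' profile, which their choice largely fixed, since they exceeded the other testis cells. Of the 12 lower genes with the largest fold, 3 stayed called. Another 8 missed the threshold (DESeq2 adjusted p from 0.064 to 0.17) at folds between −6.17 for Scp2d1 and −8.99 for Gm9999, and Tmco2 had no adjusted p. With edgeR 0 genes were called after the same subtraction. Of the 12 genes 4 lie on the X chromosome (Rhox5, Gm9112, Dmrtc1b and 4930502E18Rik). X-linked genes were 3.48% of all genes compared, 4.22% of the higher genes and 3.16% of the lower genes. Of the lower genes that exceeded the other testis cells, 8.21% (32 of 390) were X-linked. The first 3 shares were not limited to genes exceeding those cells, and no such share is given over all genes compared. The last share therefore has no like background here. As a choice on measured levels, it is given without a test.

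Of 26 other known Sertoli cell genes compared, 3 were higher and 3 lower, beside 22.2% of all genes called, with a median of −0.05. DESeq2 called 8 higher and 5 lower once the other cells' profile was subtracted. In level, 20 of the 27 genes lay above the other cells in every library. Defb19, a defensin, was at 3847 and 3122 CPM in TOs and 7391 and 3239 CPM in testes, Ctsl, the protease cathepsin L, at 3672 and 3739 CPM in TOs and 3838 and 5072 CPM in testes, and Clu, the secreted chaperone clusterin, at 3525 and 3054 CPM in TOs and 2968 and 2651 CPM in testes. Defb19 differed more between the 2 testis libraries than between the conditions. Tsx, an X-linked testis-specific gene (chrX:103414467-103424580), was lower, at 85.6 and 69 CPM in TOs and 565 and 574 CPM in testes (log2 fold change −2.80, standard error 0.18, edgeR adjusted p = 4.25e-05), and so was Fyb2, at 36.2 and 27 CPM in TOs and 181 and 225 CPM in testes (log2 fold change −2.59). Mro, or maestro, which appears in the male gonad during sex determination, was higher, at 474 and 483 CPM in TOs and 188 and 238 CPM in testes (log2 fold change 1.26). Tesc, the calcium-binding tescalcin, was higher, at 346 and 414 CPM in TOs and 15.2 and 17.5 CPM in testes (log2 fold change 4.64, standard error 0.22, edgeR adjusted p = 2.09e-05). Fabp7, a fatty acid-binding protein, was higher with 575 UMIs in TOs and 1 in testes, a pooled level 95.7-fold (95% counting interval 17.1–3787) higher in TOs, but the other TO cells held more (53.7 and 77.3 CPM).

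Hormone genes showed no common direction. Of 10 genes of the list compared, 3 were higher and 2 lower, with a median of −0.57. Inha and Inhbb, the inhibin subunits, were at 712 and 370.4 CPM in TOs and 1139 and 831 CPM in testes and at 129 and 122 CPM in TOs and 141 and 174 CPM in testes, and neither was called. Amhr2, the AMH receptor, was at 711 and 651 CPM in TOs and 1245 and 1066 CPM in testes (log2 fold change −0.68 ± 0.18), lower in both TO libraries but short of the fold threshold. Fshr, the FSH receptor, named here after its values were seen, was at 94.3 and 103 CPM in TOs and 139.6 and 149 CPM in testes (log2 fold change −0.46 ± 0.16). Pde4b, which breaks down the second messenger of FSH, was lower, at 18.3 and 10.1 against 66.1 and 85.1 CPM (log2 fold change −2.30), and Prkar2b, a regulatory subunit of the kinase that it activates, was higher, at 101 and 94 against 27.6 and 39 CPM (log2 fold change 1.67). Crem, a spermatid transcription factor, was lower, but at 369.6 and 217 CPM in the other testis cells against 111 and 67.6 CPM in Sertoli cells, and its fold turned positive after the subtraction in testes alone. Igfbp5, which binds insulin-like growth factors, was higher with 488 UMIs in TOs and 2 in testes, a pooled level 40.6-fold (95% counting interval 11.2–336) higher in TOs. Star, which brings cholesterol into mitochondria, was higher, at 47.6 and 32.1 against 13.8 and 20.7 CPM, and was at 22.6 and 7.22 CPM in TOs and 35.5 and 55.7 CPM in testes in the other cells.

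Of the ovarian pathway genes, Wnt4 and Fst were higher in TOs. Wnt4 (chr4:137277489-137299726), a secreted signal that opposes the testis pathway in the early gonad, was at 93.6 and 70.1 CPM in TOs and 2.83 and 0.796 CPM in testes and at 34.7 and 52.5 CPM in TOs and 1.37 and 0.741 CPM in testes in the other cells. The conditions did not overlap (log2 fold change 5.30, standard error 0.37, edgeR adjusted p = 6.18e-05). Thinned Sertoli cells with a UMI of Wnt4 were 17.9% and 14% in TOs and 0.525% and 0.763% in testes, and thinned Leydig cells 9.12% and 15.9% in TOs and 2.29% and 0.538% in testes, at median depths of 9823, 11070, 6971 and 9446 UMIs in Sertoli and 11861, 13236, 6305 and 9788.5 UMIs in Leydig cells before thinning. The share in TO replicate 2 was thus no higher than in Leydig cells of that library. Fst, follistatin, which binds activin, was at 34 and 41.6 CPM in TOs and 3.89 and 3.98 CPM in testes (log2 fold change 3.34, standard error 0.32, edgeR adjusted p = 0.000225). The other 5 genes compared were not called, among them Cyp19a1 (2.58 and 0.115 against 9.54 and 12.7 CPM) and Runx1 (12.9 and 6.91 against 2.47 and 0 CPM), and the median of the 7 was 2.66. Foxl2, the ovarian forkhead factor, named after its values were seen, was listed at 5.29 and 3.23 CPM in TOs and at 0 in testes, and was left out by the rule on other cells, which held it in testes at 0 and 0.261 CPM.

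Signals to germ cells and neighbours were compared for 8 of 20 genes, since 10 were left out for their level in other cells. Gdnf and Tgfb2 were higher in TOs. Gdnf missed the threshold with DESeq2 (adjusted p = 0.025) and in each edgeR fit without 1 of the 4 libraries (adjusted p from 0.014 to 0.045). Gdnf, the factor that keeps spermatogonial stem cells, was at 12.7 and 11.3 CPM in TOs and 3.53 and 3.98 CPM in testes (log2 fold change 1.77, standard error 0.39, edgeR adjusted p = 0.0081). Tgfb2, a transforming growth factor, was at 64.2 and 56.1 CPM in TOs and 1.77 and 1.59 CPM in testes (log2 fold change 5.19, standard error 0.31, edgeR adjusted p = 3.58e-05). Kitl, the ligand of the KIT receptor on differentiating spermatogonia, was at 382 and 332 CPM in TOs and 234 and 294 CPM in testes (log2 fold change 0.52 ± 0.18), and Dhh, the hedgehog signal to Leydig and myoid cells, at 144 and 109 CPM in TOs and 94.4 and 98.7 CPM in testes (log2 fold change 0.47 ± 0.17). Both were higher in both TO libraries than in both testis libraries without being called. The median of the 8 genes was 1.15.

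Secreted and transport proteins were called for 3 of 17 genes, all higher, with a median of 0.31. Cst3, an inhibitor of cathepsins, was at 1253 and 1039 CPM in TOs and 557 and 531 CPM in testes (log2 fold change 1.15), Cp, the copper protein ceruloplasmin, at 63.3 and 85.5 CPM in TOs and 7.07 and 11.9 CPM in testes (log2 fold change 3.15), and Timp1, an inhibitor of matrix proteases, at 54.8 and 63.4 CPM in TOs and 14.1 and 7.16 CPM in testes (log2 fold change 2.43). After the subtraction in all 4 libraries the fold of Cst3 and of Timp1 turned negative and Cp had no adjusted p. DESeq2 then called 3 other genes of the list higher and 4 lower, Cst3 and Timp1 among the latter. Cst3, Cp and Timp1 were higher still in the other TO cells, at 3486 and 2536 CPM, 246 and 195 CPM and 142 and 148 CPM.

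Of 21 genes of the blood-testis barrier compared, 4 were higher and 0 lower, with a median of 0.57. Over all genes, 6.82% were called higher and 15.4% lower, or 22.2% in either direction. With DESeq2, the barrier genes called higher were 10 after subtraction in all 4 libraries and 1 after subtraction in testes alone. Tjp1, the scaffold ZO-1, was at 398 and 376 CPM in TOs and 349 and 517 CPM in testes, Cdh2, or N-cadherin, at 349 and 372 CPM in TOs and 261 and 322 CPM in testes, Nectin2 at 309 and 304 CPM in TOs and 178 and 235 CPM in testes, and Espn, which bundles actin at the junctions with spermatids, at 346 and 469 CPM in TOs and 536 and 683 CPM in testes. Tjp1 overlapped between the conditions. The genes that were higher were the junctional adhesion molecules Jam2 (231 and 197 against 99.3 and 107 CPM, log2 fold change 1.14) and Jam3 (323 and 363 against 119 and 190.2 CPM, log2 fold change 1.26), the related receptor Cxadr (34.3 and 29.6 against 5.65 and 4.77 CPM, log2 fold change 2.65) and Cldn12 (8.26 and 10.7 against 2.47 and 1.59 CPM, log2 fold change 2.19). Cldn3, named after its values were seen, was at 17 and 75 CPM in TOs and 74.9 and 77.2 CPM in testes, so that TO replicate 1 was below the other 3 libraries.

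**Figure D4:**
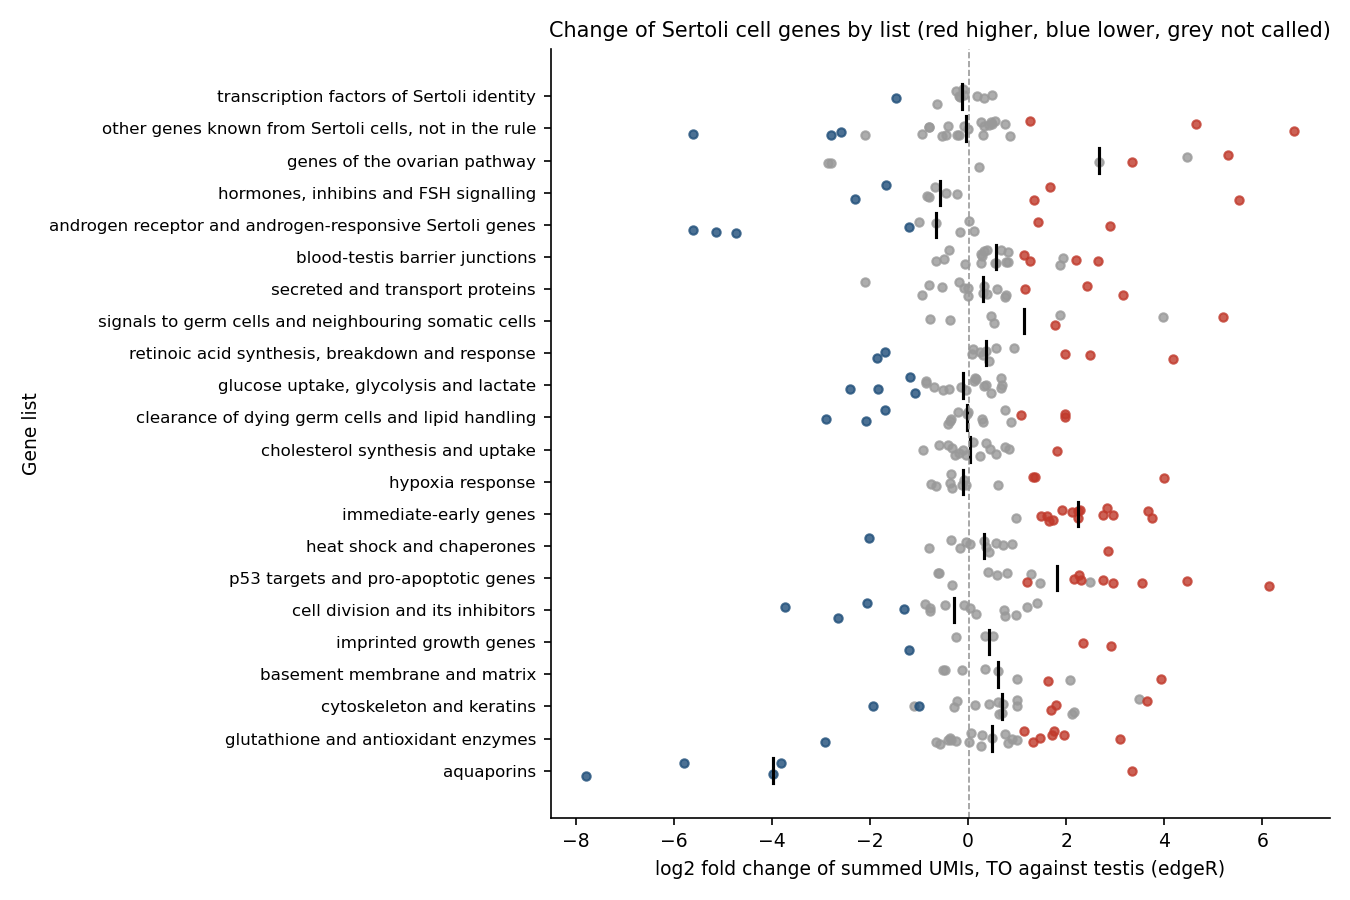
Log2 fold change of each gene compared between Sertoli cells of TOs and of testes (edgeR, x axis) in 22 gene lists (y axis), with genes called higher in red, called lower in blue and not called in grey. Black bars are list medians and the dashed line is the median of all genes compared (0.03). The immediate-early genes and the p53 targets have medians of 2.23 and 1.81, and the identity factors lie around 0.

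Among cytoskeletal genes, 3 were higher and 2 lower of 19 compared, with a median of 0.69. Ezr, or ezrin, which links actin to the membrane, was at 222 and 221 CPM in TOs and 14.8 and 24.7 CPM in testes (log2 fold change 3.65, standard error 0.24, edgeR adjusted p = 4.36e-05). Myl6, a myosin light chain (857 and 1033 against 270.4 and 312 CPM), and Tpm1, a tropomyosin (183 and 166 against 61.1 and 51.7 CPM), were also higher, and the other TO cells held more of both. The fold of Tpm1 turned negative with DESeq2 after the subtraction in all 4 libraries. Stmn1, which destabilises microtubules, was lower, at 196 and 187 against 809 and 743 CPM (log2 fold change −1.94), and so was Tmsb10, which the other testis cells held at 2088 and 1821 CPM and whose fold turned positive after the subtraction in testes alone. Vim, the intermediate filament vimentin, was at 895 and 1092 CPM in TOs and 460.1 and 605 CPM in testes (log2 fold change 0.99 ± 0.21), just short of the fold threshold. Of the matrix genes, 9 of 19 could be compared and 2 were higher. Sparc, a matrix-binding glycoprotein, was at 5823 and 5815 CPM in TOs and 1892 and 2116 CPM in testes (log2 fold change 1.62, standard error 0.21, edgeR adjusted p = 0.000735), and Col4a5, a basement membrane collagen chain, at 64.3 and 84.1 CPM in TOs and 5.65 and 3.98 CPM in testes (log2 fold change 3.94), with 162 and 197 CPM in the other TO cells. Lama1, a laminin chain, was at 137 and 138 CPM in TOs and 216 and 198 CPM in testes, and was not called.

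Epithelial genes of the rete testis, the duct at the end of the tubules, were examined as markers of another cell type. Epcam, an epithelial adhesion molecule, was higher, at 237 and 272 CPM in TOs and 38.5 and 58.1 CPM in testes (log2 fold change 2.52, standard error 0.23, edgeR adjusted p = 0.000156), and Cdh1, or E-cadherin, was higher, at 9.01 and 15 CPM in TOs and 2.47 and 2.39 CPM in testes (log2 fold change 2.36). Pax8, a factor of duct epithelia, was at 12 and 44 CPM in TOs and at 0 in testes. It was left out by the rule on other cells, which held it in testes at 0.128 and 0.22 CPM. Thinned Sertoli cells with a UMI were 1.78% and 6.87% for Pax8 in TOs, against 41.9% and 42.2% for Epcam. The 6 rete genes summed to 267 and 357 CPM in Sertoli cells of TOs and to 41.3 and 69.2 CPM in testes, with Epcam highest and Krt19 at 0 in both testis libraries. Their part in the other changes was not tested.

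Among genes of retinoic acid handling, Rdh10, which makes retinaldehyde, was higher in TOs, at 123 and 84.9 CPM in TOs and 18 and 22.3 CPM in testes (log2 fold change 2.48, standard error 0.24, edgeR adjusted p = 0.000232), and so was Dhrs3, which returns it to retinol, at 28.8 and 18.8 CPM in TOs and 4.95 and 8.75 CPM in testes (log2 fold change 1.98). Stra6, a membrane transporter of retinol, was lower, at 14.5 and 22.1 CPM in TOs and 62.6 and 61.3 CPM in testes (log2 fold change −1.69), and Rdh11 was lower with more in the other testis cells (71.9 and 62.7 CPM). Aldh1a1 and Aldh1a2, which make retinoic acid, were at 674 and 657 CPM in TOs and 531 and 409 CPM in testes and at 106 and 82.8 CPM in TOs and 90.1 and 78 CPM in testes, and neither was called. In all, 3 of 13 genes were higher and 2 lower, with a median of 0.37.

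Of 20 glucose and lactate genes compared, 4 were called lower, beside 15.4% of all genes, with a median of −0.10. With DESeq2, subtraction in testes alone left 1 lower, and that in all 4 libraries gave 5 lower and 1 higher. Hk2, a hexokinase, was at 131 and 98.3 CPM in TOs and 311 and 239 CPM in testes (log2 fold change −1.19, standard error 0.21, edgeR adjusted p = 0.0029), above the other testis cells. The other 3, Hk1, Pfkp and Slc2a3, were higher in the other testis cells, where Hk1 was at 242 and 424 CPM, and the fold of Hk1 was near 0 after the subtraction in testes alone. Ldhb, a lactate dehydrogenase subunit, was at 979 and 928 CPM in TOs and 818 and 789 CPM in testes, and Bsg, the partner of the lactate transporters, at 651 and 761 CPM in TOs and 675 and 672 CPM in testes. Of the genes of cholesterol synthesis and uptake, 1 of 16 was called, Dhcr7, which catalyses a last step (70.8 and 81.2 against 20.5 and 26.3 CPM, log2 fold change 1.81), and the median was 0.03. That list had 7 genes called lower and 1 higher by DESeq2 after the subtraction.

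Clearance genes moved in both directions, with 3 higher and 3 lower of 16 and a median of −0.02. Once the other cells' profile was subtracted, DESeq2 called 2 higher and 9 lower. Itgb5, an integrin subunit of the receptor for dying cells, was at 27.5 and 29.5 CPM in TOs and 168 and 286 CPM in testes (log2 fold change −2.89, standard error 0.26, edgeR adjusted p = 0.000148). Mfge8, the bridge between that receptor and dying cells, was at 25.7 and 16.6 CPM in TOs and 117 and 68.4 CPM in testes (log2 fold change −2.08), and Pros1, the ligand of the TAM receptors, at 37.3 and 33.9 CPM in TOs and 106 and 140.03 CPM in testes (log2 fold change −1.69). Itgav, the alpha subunit that pairs with Itgb5, was higher, at 160.3 and 169 CPM in TOs and 39.6 and 50.9 CPM in testes (log2 fold change 1.97, standard error 0.18, edgeR adjusted p = 0.00018). Abca1, a lipid exporter (229 and 151 against 65 and 31.8 CPM), and Rac1, a small GTPase (185 and 190.4 against 86.2 and 103 CPM), were also higher, and both were higher in the other TO cells too. Their fold turned negative, with edgeR and with DESeq2, after the subtraction in all 4 libraries. Elmo1, which acts upstream of Rac1 in engulfment, was at 464 and 426 CPM in TOs and 451 and 639.7 CPM in testes, and was not called.

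Antioxidant enzymes were higher in 7 and lower in 1 of 23, with a median of 0.48. Gstm1, a glutathione transferase, was at 1889 and 1786 CPM in TOs and 714 and 469 CPM in testes (log2 fold change 1.71, standard error 0.25, edgeR adjusted p = 0.0013). Prdx1, a peroxiredoxin, was at 1156 and 1129 CPM in TOs and 404 and 474 CPM in testes (log2 fold change 1.47), Gsr, glutathione reductase, at 239.6 and 336 CPM in TOs and 65.7 and 120.1 CPM in testes (log2 fold change 1.76), and Cat, catalase, at 32.8 and 35.6 CPM in TOs and 8.13 and 11.1 CPM in testes (log2 fold change 1.96). Gpx1 (192 and 177 against 87.6 and 66.8 CPM), Gpx3 (25.4 and 35 against 3.53 and 3.98 CPM), which reduce peroxides, and Gclc (67.9 and 72.7 against 32.9 and 35 CPM), which starts glutathione synthesis, were also higher. The other TO cells held more of Prdx1 (2011 and 1659.9 CPM), Cat (59.9 and 67.8 CPM), Gpx1 (269 and 194 CPM), Gpx3 (47.8 and 39.8 CPM) and Gclc (173 and 126 CPM), and at the shares taken the subtraction in all 4 libraries turned the fold of these 5 genes negative with DESeq2. The list then had 4 genes called higher and 5 lower, and with the subtraction in testes alone 6 higher and 0 lower. Gstm5 was lower, with 2494 and 2921 CPM in the other testis cells against 698 and 586 CPM in Sertoli cells. The medium of the TOs held antioxidants, and its part cannot be told apart from that of culture.

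Of 5 aquaporins compared, 4 were lower, Aqp8 among them, and 1 higher, and Aqp7, Aqp9 and Aqp11 were higher in the other testis cells than in Sertoli cells, with Aqp11 at 12.5 and 10.02 against 186 and 189 CPM and at 604 and 882 CPM in the other testis cells. Aqp5 was higher in TOs, at 47.7 and 21.4 against 4.59 and 1.59 CPM (log2 fold change 3.35). Of the hypoxia genes, 3 of 12 were higher: Bnip3, a mitophagy receptor (36.7 and 31.4 against 14.5 and 14.3 CPM), Egln1, an oxygen sensor (286 and 311 against 111 and 136 CPM), and Adm, or adrenomedullin (26.1 and 17.7 against 2.12 and 0 CPM). The median of that list was −0.11. The other TO cells held Bnip3 at 60.2 and 41.5 CPM, above Sertoli cells, and its fold turned negative after the subtraction in all 4 libraries.

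Immediate-early genes were higher in 14 of the 15 that could be compared, and Klf4 alone was not called (77.5 and 48.6 against 41.3 and 23.1 CPM). Their median log2 fold change was 2.23, beside 0.03 over all genes and a background of 6.82% called higher. Fos, a subunit of AP-1, was at 418 and 328 CPM in TOs and 35 and 20.7 CPM in testes (log2 fold change 3.75, standard error 0.27, edgeR adjusted p = 6.42e-05). Jun, its partner, was at 457 and 363 CPM in TOs and 94.4 and 89.1 CPM in testes (log2 fold change 2.23, standard error 0.18, edgeR adjusted p = 0.000107), and Jund at 1558 and 1375 CPM in TOs and 311 and 345 CPM in testes (log2 fold change 2.24). Atf3 was at 61 and 29.9 against 3.18 and 4.77 CPM, Dusp1 at 129.7 and 61.7 against 14.8 and 9.55 CPM and Btg2 at 289 and 191 against 34.3 and 36.6 CPM. No library of TOs overlapped with one of testes in these 15 genes, beside 71.7% of all genes without overlap. The other kept cells of TOs held still more of Fos (1233 and 619.8 CPM), Junb (1588 and 1180.2 CPM), Egr1 (634 and 407 CPM) and Btg2 (923 and 638 CPM), and the levels in the other testis cells were 72.9 and 33.7 CPM, 83.5 and 51.2 CPM, 51.7 and 17.1 CPM and 43.6 and 36 CPM. After removing 16.7% and 17.6% of the other cells' level in TOs and 34.9% and 12.2% in testes (the shares of stromal and spermatid genes above), 12 of the 14 stayed more than 2-fold higher. Other marker lists had larger shares in TOs, such as endothelial genes (45.0% and 39.8%), and removal at those shares was not run. With the larger subtraction at 92.5% and 79.6% in TOs, DESeq2 called 4 of the genes higher and 7 lower, with the fold of Fos, Junb, Egr1 and Btg2 negative, as follows from their level in the other TO cells at such a share. With the subtraction in testes alone it called 12 higher and 0 lower.

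Of the heat shock genes, 1 was higher and 1 lower of 13, with a median of 0.32. Hspa1a was higher but at more in the other TO cells (24.3 and 17 against 2.47 and 3.98 CPM, other TO cells 163 and 58 CPM), and Dnajb1 was lower but at more in the other testis cells. Hsp90ab1, an abundant chaperone, was at 1882 and 1818 CPM in TOs and 1446 and 1208 CPM in testes.

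Targets of p53 and pro-apoptotic genes were higher in 9 of 18, and 0 were lower, with a median of 1.81. Bax, which opens the mitochondrial outer membrane in apoptosis, was at 626 and 489 CPM in TOs and 112 and 127 CPM in testes (log2 fold change 2.30, standard error 0.19, edgeR adjusted p = 0.000109). Ccng1, a cyclin and p53 target, was at 101 and 69 CPM in TOs and 8.84 and 5.57 CPM in testes (log2 fold change 3.54, standard error 0.30, edgeR adjusted p = 0.000131), and Bbc3, the BH3-only protein PUMA, at 37.3 and 35.8 CPM in TOs and 1.41 and 2.39 CPM in testes (log2 fold change 4.46, standard error 0.36, edgeR adjusted p = 0.000104). Phlda3, which restrains AKT, was at 68.2 and 38.1 against 10.2 and 4.77 CPM, and Zmat3 at 28.8 and 21.4 against 3.53 and 3.18 CPM. Eda2r, a death receptor, had 447 UMIs in TOs and 1 in testes, with a pooled level 74.4-fold (95% counting interval 13.3–2946) higher in TOs. Fas, Aen and Bid were the others that were higher. All 9 stayed more than 2-fold higher after the smaller removal described for the immediate-early genes. After the larger subtraction, DESeq2 called 6 genes of the list higher and 2 lower, and the fold of Fas turned negative. In the other cells, Bax was at 237 and 179 CPM in TOs and 52.9 and 46.9 CPM in testes and Ccng1 at 35.3 and 23.4 CPM in TOs and 7.58 and 7.41 CPM in testes, below Sertoli cells in TOs. Cdkn1a, the p53 target that arrests division, was at 173 and 135 CPM in TOs and 82 and 109 CPM in testes (log2 fold change 0.78 ± 0.19), and Mdm2, which degrades p53, at 114 and 89.6 CPM in TOs and 82.3 and 78.8 CPM in testes (log2 fold change 0.42 ± 0.17). Neither was called.

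Of 16 cell division genes compared, 4 were lower and 0 higher, and the 4, Top2a, Ccnb1, Ccnb2 and Birc5, were all higher in the other testis cells, with Ccnb2 at 4.98 and 7.03 against 97.5 and 66 CPM and at 324 and 191 CPM in the other testis cells. Subtraction in testes alone left 1 of the list lower with DESeq2 and the fold of Top2a near 0, and that in all 4 libraries left 3 lower. Ccnd2, a cyclin of the first growth phase, was at 118 and 125 CPM in TOs and 107 and 40.6 CPM in testes, and Cdkn1b, an inhibitor of division, at 42.9 and 49.4 CPM in TOs and 63.6 and 121 CPM in testes. Neither was called. Of the imprinted growth genes, 6 of 14 could be compared. Mest (29.7 and 39.9 against 4.95 and 11.1 CPM, log2 fold change 2.34) and Ndn (43.1 and 44.9 against 7.77 and 3.18 CPM, log2 fold change 2.92) were higher and Peg3 was lower (34.2 and 34.6 against 89.1 and 77.2 CPM, log2 fold change −1.20), and Ndn was at 103 and 106 CPM in the other TO cells.

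**Figure D5:**
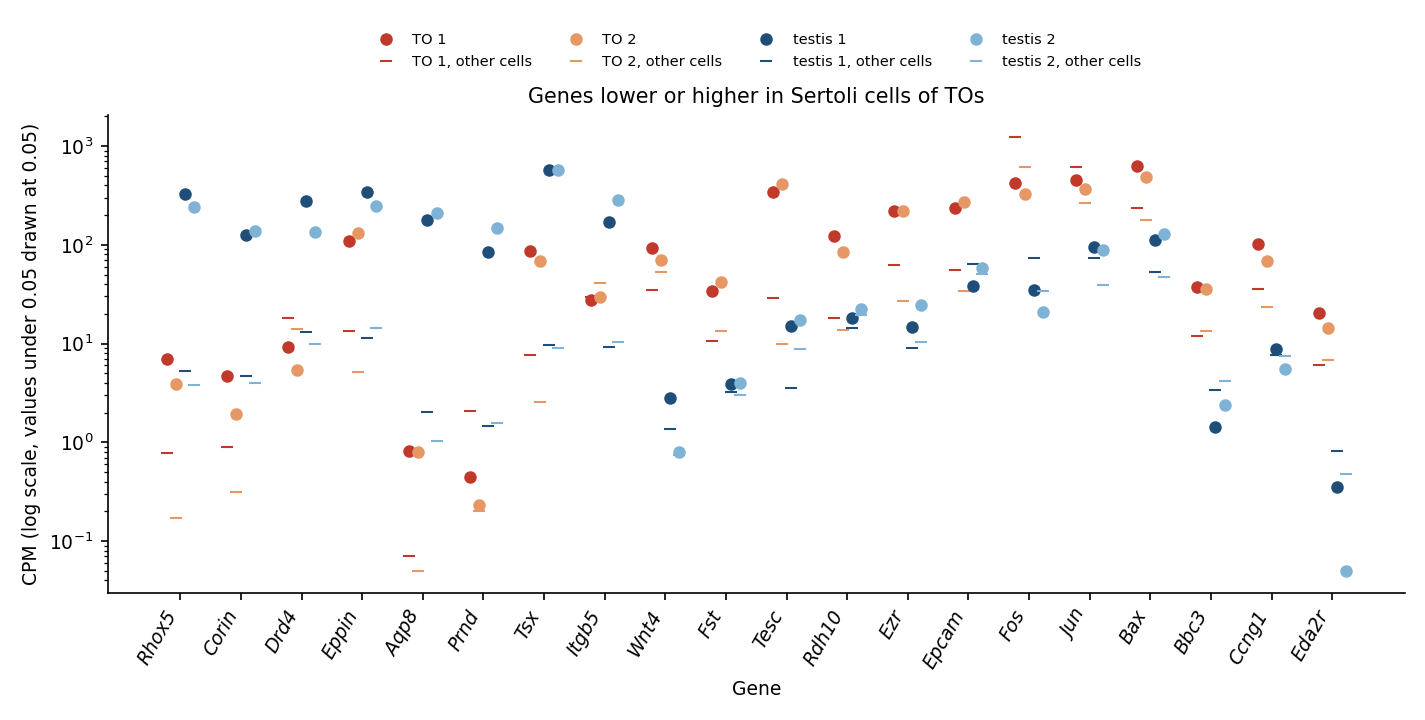
Level of 20 named genes in Sertoli cells (points) and in all other kept cells (dashes) of each library, in CPM on a log axis, with values under 0.05 drawn at 0.05. The TO and testis points of each gene do not overlap, and Fos and Jun are at or above the Sertoli cell level in the other cells of TO replicate 1.

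The 12 genes with the largest fold among those higher in TOs (at least 50 CPM, no overlap) were Ly6h, Hspb8, Trim2, Pdlim4, Acot1, Wnt4, Tgfb2, Zfpm2, Ctsh, Lbh, Igfbp3 and Plxna4. Ly6h, a membrane-anchored protein that modulates nicotinic receptors, was at 65 and 174 CPM in TOs and 0.353 and 3.18 CPM in testes (log2 fold change 6.64, standard error 0.85, edgeR adjusted p = 0.000755). Trim2, a ubiquitin ligase, was at 184 and 189.6 CPM in TOs and 2.12 and 2.39 CPM in testes (log2 fold change 6.47, standard error 0.25, edgeR adjusted p = 1.31e-05). Hspb8, a small heat shock protein, had 1766 UMIs in TOs and 3 in testes and a pooled level 98-fold (95% counting interval 33.5–476) higher in TOs. Zfpm2, the GATA4 cofactor FOG2, was at 192 and 236 CPM in TOs and 5.65 and 7.96 CPM in testes (log2 fold change 5.13, standard error 0.26, edgeR adjusted p = 2.48e-05), with 144 and 177 CPM in the other TO cells. Ctsh, the protease cathepsin H, was at 381 and 287 CPM in TOs and 10.2 and 10.3 CPM in testes (log2 fold change 5.09), and Igfbp3, which binds insulin-like growth factors, at 175 and 231 CPM in TOs and 9.9 and 3.18 CPM in testes (log2 fold change 4.82). Thinned Sertoli cells with a UMI of Igfbp3 were 29.6% and 37.6% in TOs and 3.41% and 0.763% in testes, and Leydig cells 3.02% and 5.01% in TOs and 0.176% and 0.538% in testes. Except for Acot1 in TO replicate 1, all 12 genes were above the other TO cells in both libraries.

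To see which changes in Sertoli cells differed from those in neighbours of the same libraries, the change was compared with that in Leydig cells (1550, 1296, 579 and 390 cells) and in myoid cells (3817, 2612, 727 and 450 cells) by edgeR's test of the interaction, with the library as a block. Against Leydig cells, 329 genes (2.14% of 15357) had a positive and 321 (2.09%) a negative difference (log2 change of TOs against testes in Sertoli cells minus that in Leydig cells). Against myoid cells, 1072 (6.32% of 16971) had a positive and 724 (4.27%) a negative one. These counts fell to 45 and 49 against Leydig cells and 106 and 73 against myoid cells without testis replicate 1, and to 133 and 105 against Leydig cells and 447 and 547 against myoid cells without testis replicate 2. Without TO replicate 1, 519 genes had a positive difference from Leydig cells. Of the 12 genes above, 6 differed from Leydig cells and 10 from myoid cells, which their choice by fold in Sertoli cells favours. The difference for Hspb8 was 6.76, standard error 0.75, edgeR adjusted p = 0.0017 against Leydig cells, and for Ctsh it was 4.73, standard error 0.44, edgeR adjusted p = 0.000905. For Wnt4 it was 3.32, standard error 0.60, edgeR adjusted p = 0.0014 against myoid cells and 1.93, standard error 0.83, edgeR adjusted p = 0.17 against Leydig cells, so that only the former passed the test.

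Tesc differed from both neighbours, with 5.87, standard error 0.90, edgeR adjusted p = 0.0061 against Leydig cells. Among the p53 targets that were higher, 2 differed from Leydig cells, Bax (1.64, standard error 0.23, edgeR adjusted p = 0.0041) and Ccng1 (3.06, standard error 0.40, edgeR adjusted p = 0.0034), and 6 of the 9 from myoid cells. Among the immediate-early genes, 2 of 14 differed from Leydig cells, Fos (2.05, standard error 0.36, edgeR adjusted p = 0.0093) and Jund (1.57, standard error 0.24, edgeR adjusted p = 0.0059), and 4 from myoid cells. Of the antioxidant enzymes, 5 of 7 differed from Leydig cells, with Gstm1 at 2.91, standard error 0.25, edgeR adjusted p = 0.000656. The counts for these lists were taken over genes already called higher in Sertoli cells. The share over all 927 higher genes is not given here, so the counts have no like background. On the lower side, Rhox5 differed from Leydig cells (−3.98, standard error 0.48, edgeR adjusted p = 0.0023), as did Itgb5 (−2.95, standard error 0.25, edgeR adjusted p = 0.000592) and Hk2 (−1.58, standard error 0.26, edgeR adjusted p = 0.0072). Aqp8, Corin and Drd4 did not pass this test, at −1.73, −3.18 and −0.38. In Leydig cells of testes, Aqp8 was at 1.32 and 0.524 CPM and Corin at 1.05 and 0.785 CPM.

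Variation between Sertoli cells of a library was described at equal depth. After thinning to 3000 UMIs, which left out 150, 72, 22 and 21 shallower cells, 252 genes had a mean of at least 1 UMI in every library, and the variance of their counts was a median of 1.44, 1.57, 1.20 and 1.32 times the mean, where 1 is the value of random counting. Both TO libraries had higher medians than both testis libraries, a description over 2 libraries each. The ratio can rise with the mean count of a gene, which thinning does not make equal between libraries. The ratio was at least 4.38 in every library for the nuclear RNA Malat1, at 26.3 and 19.5 in TOs and 4.38 and 8.67 in testes. For Ctsl it was 3.97, 5.44, 2.51 and 5.08, and for Defb19 it was 6.65, 5.97, 4.04 and 2.41. Clu (4.06, 4.09, 1.94 and 2.98), Sparc (4.83, 5.16, 2.08 and 3.17) and Aard (4.94, 5.63, 1.66 and 1.97) were also among the 15 with the highest lowest ratio. These genes were chosen after the values were seen. Mean counts of Malat1 were higher in TOs (25.2 and 20.3 against 10.9 and 7.56), and those of Ctsl were lower (10.6 and 10.7 against 11.8 and 15.3).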

How the data were processed

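Single cells of 2 TO and 2 testis libraries were measured by droplet-based sequencing (10x Genomics). The authors deposited UMI counts per gene and barcode from Cell Ranger 7.1.0 (mm10 in the submitters' processing notes) without normalization, in 14643 and 12491 barcodes of TOs and 12179 and 11826 of testes. These held 106577822, 119966959, 77016449 and 74988295 UMIs. The rule for Sertoli cells, the gene lists and the tests were chosen with earlier results of these data known. Genes were named when they were among the 4 highest of a list in mean CPM or called in it, among the 15 leading Sertoli cells, or among the 12 higher or lower genes of largest fold. UMIs were summed per library and tested with edgeR 4.0.16 (TMM, filterByExpr, quasi-likelihood F test, limma 3.58.1, R 4.3.3) and DESeq2 1.42.0. Shares of cells were compared by exact permutation over libraries. In simulated sums at these depths with 200 changed genes, edgeR recovered 83% of log2 changes of 2 and 99% of 3, with 0 unchanged genes called. The simulation gave every gene the same spread between libraries, changed only genes above a minimum level and held no transcripts of other cells. It therefore does not measure false calls in the real sums. Doublets were kept, and Scrublet (scanpy 1.11.5) was an alternative. Positions came from GENCODE vM21 and promoter windows from RefSeq. Further tools were Python 3.11.15, numpy 2.4.6, pandas 2.3.3, scipy 1.17.1 and matplotlib 3.10.9. Some members of the gene lists are counted in them but not reported here.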

Additional observations from a re-analysis of the deposited data

Results flagged for a closer look

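The change between TOs and testes differed between Sertoli and Leydig cells by edgeR's test of the difference for 10 of the genes chosen by the size of their fold (log2 change in Sertoli cells minus that in Leydig cells, 2 libraries per condition). These were 6 of the 12 higher genes, 1 of the 12 lower genes (Prnd) and 4 of the 12 lower genes above other cells, chosen after the values were seen, with Prnd in both sets. The fold used for the choice is part of the difference tested. The choice therefore favours a large difference, and the p-values do not allow for it. Without testis replicate 1, the genes that passed this test fell from 329 with a positive and 321 with a negative difference to 45 and 49, and without testis replicate 2 to 133 and 105. Without TO replicate 1 there were 519 and 426. The difference was 6.76, standard error 0.75, edgeR adjusted p = 0.0017 for Hspb8, 4.89, standard error 0.75, edgeR adjusted p = 0.006 for Plxna4 and 4.73, standard error 0.44, edgeR adjusted p = 0.000905 for Ctsh. It was 4.10, standard error 0.57, edgeR adjusted p = 0.0043 for Pdlim4, 3.85, standard error 0.38, edgeR adjusted p = 0.0011 for Lbh and 3.09, standard error 0.54, edgeR adjusted p = 0.0095 for Trim2. Trim2 overlaps other genes, and Hspb8 rested on few UMIs in testes.

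For 4 genes lower in TOs the difference was negative. It was −10.27, standard error 0.65, edgeR adjusted p = 0.000291 for Prnd and −7.53, standard error 0.76, edgeR adjusted p = 0.0012 for 4930502E18Rik. The value was −5.63, standard error 0.35, edgeR adjusted p = 0.000291 for Ano1 and −3.98, standard error 0.48, edgeR adjusted p = 0.0023 for Rhox5. In Leydig cells themselves the log2 change was 1.75 for Prnd, 1.83 for 4930502E18Rik, −0.30 for Ano1 and −1.82 for Rhox5, and none was called (edgeR adjusted p from 0.14 to 0.65). Leydig cells of testes held Prnd at 0.791 and 1.05 CPM, 4930502E18Rik at 0.791 and 0.785 CPM, Rhox5 at 4.22 and 1.31 CPM and Ano1 at 5.27 and 4.97 CPM.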

How the results depend on the processing

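Other factors, filters and rules for cells left the counts within 1.5 times of 927 higher and 2090 lower, except as follows. No filter on low counts gave 1706 higher. Leaving out genes from 1 time the other cells' level (added after seeing the data) gave 419 higher and 273 lower of 5284, and from 2 times 485 lower. Subtraction of the other cells' profile, in all 4 libraries or in testes alone, left edgeR with 0 calls, although 482 and 765 of the 927 higher and 627 and 932 of the 2090 lower genes still changed by more than 1 on the log2 scale in their direction, and subtraction in testes alone left DESeq2 with 537 higher and 566 lower. Subtraction in testes alone, DESeq2 on subtracted sums and a mitochondrial limit of 20% were also added after seeing the data. The cause was not tested. Leaving out 1 library gave 585 to 1019 higher and 1172 to 1917 lower. The replicate numbers did not pair the libraries (correlation of deviations 0.089 across 15271 genes), and a replicate block gave 1211 higher and 2344 lower.

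For the difference from Leydig cells, leaving out 1 library gave 45 to 519 positive and 49 to 426 negative differences, and no library block gave 96 and 102. For myoid cells these were 106 to 898 and 73 to 984, and 271 and 148 without the block. The difference in median genes per Sertoli cell between TOs and testes ran from −68.5 to 538 when 1 library was left out, and was −68.5 without testis replicate 1.

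Among genes called and named, the log2 fold changes that turned sign were all under subtraction, not counting genes without an adjusted p there, such as Cp. With edgeR and all 4 libraries they were Cst3 (−13.67), Timp1 (−7.88), Rac1 (−2.54), Abca1 (−9.92), Bnip3 (−8.19), Fos (−8.56), Junb (−11.46), Egr1 (−10.09), Btg2 (−9.52), Gpx1 (−1.46), Gclc (−9.73), Cat (−7.51), Prdx1 (−13.20) and Pdgfra (−7.05). With DESeq2 they were Cst3 (−13.70), Timp1 (−7.90), Rac1 (−2.67), Abca1 (−9.95), Bnip3 (−8.22), Fos (−8.59), Junb (−11.49), Egr1 (−10.13), Btg2 (−9.55), Fas (−1.90), Tpm1 (−8.99), Gpx1 (−1.59), Gpx3 (−0.072), Gclc (−9.76), Cat (−7.55), Prdx1 (−13.24) and Pdgfra (−7.08). With the testis libraries alone they were Crem (0.31), Hk1 (0.025) and Tmsb10 (0.59) by edgeR and Crem (0.27), Top2a (0.026) and Tmsb10 (0.59) by DESeq2. A library-level change smaller than the spread between 2 libraries was not detectable, and the 152 cells of testis replicate 2 set the least depth.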
